A study of Homo sapiens with 16 samples.

Results

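Solute carriers and ion pumps move metabolites, ions and metals across the membranes of the cell, and 56 of the 2213 genes with an Ago2 peak in the table analysed here belong to them. They were taken by gene name alone: every name beginning with SLC and a digit, with ATP1A, ATP1B, ATP2A to ATP2C, ATP6, ATP8, ATP11 or ABCA to ABCG, together with VMA21. Names in SLCO or ATP7 were searched for too and had no peak in the table. The 56 genes held 81 of 4718 peaks with distinct values, and comprised 37 solute carriers, 13 pump genes, 4 lipid flippases and 2 ABC proteins.

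The cells were 293S, an established line derived from human embryonic kidney, exposed to 1 µM hippuristanol for 30 min or left without treatment. There were 2 replicates of each, and the labels do not say whether these were separate cultures. Ago2 antibodies from Abnova, Santa Cruz and Sigma gave 6 CLIP libraries of hippuristanol-treated cells and 6 of untreated cells, next to 2 RNA-seq libraries of each. CLIP (crosslinking and immunoprecipitation) recovers the RNA that a protein touches, here Argonaute 2 (Ago2), the carrier of microRNAs. Hippuristanol inhibits eIF4A, the helicase that opens the 5′ end of mRNAs for the ribosome.

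Each peak had a single log average over both treatments and a single log ratio of hippuristanol over untreated, with no value per library. The replicates could thus not be compared with each other, no test between treatments could be made, and no p-value is given. Neither the base of the logarithm nor the kind of normalization is stated, so values are in the authors' log units and cannot be read as folds. The depth of the libraries is unknown. Changes in the amount of an mRNA were not analysed here and cannot be told apart from changes of Ago2 on it. The table lists Ago2 peaks only, so the cell line label was not checked against marker genes.

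Solute carriers let their cargo pass down its own gradient or couple it to another solute as cotransporters or exchangers, and many of the coupled ones use ion gradients that the pumps maintain with ATP. The sodium pump and the calcium pump ATP2B1 sit in the plasma membrane, ATP2A2 fills the endoplasmic reticulum with calcium, ATP2C1 supplies calcium and manganese to the Golgi, and the vacuolar ATPase acidifies lysosomes and endosomes. Many of these proteins are made at the endoplasmic reticulum. MicroRNAs pair through their seed, bases 2 to 8, with sites that lie mostly in 3′ untranslated regions (3′ UTRs).

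Seed matches are shown for members at both ends of the range of 3′ UTR log ratios, because pairing with the seed is how Ago2 finds an mRNA. The mature microRNAs, from RefSeq (GRCh38.p14), have the seed in capitals, and the sites, from GENCODE 29 transcripts, have the 7-nt match in capitals. The miR-15/16 family is represented by miR-16-5p, with matches in SLC11A2 and VMA21, whose 3′ UTR values were high, and in ATP6V0B and ATP6V0A2, whose values were the lowest.
miR-16-5p: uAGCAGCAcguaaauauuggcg
SLC11A2, 3′ UTR position 229 to 235: gaaaagctgacattTGCTGCTa
VMA21, position 2314 to 2320: ttaactcactagttTGCTGCTg
ATP6V0B, position 186 to 192: tgcggggagcaggcTGCTGCTg
ATP6V0A2, position 2798 to 2804: cctctttcgctgaaTGCTGCTc

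The miR-30 family, represented by miR-30a-5p, had matches in SLC22A5 and ATP2B1, above the median of all genes, and in SLC35B4, below it.
miR-30a-5p: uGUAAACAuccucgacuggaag
SLC22A5, position 643 to 649: cgactgagtagactTGTTTACa
ATP2B1, position 446 to 452: aaatgatacagatcTGTTTACa
SLC35B4, position 2770 to 2776: atgaagatactgttTGTTTACa

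The miR-25/92 and miR-19 families are shown with a match in VMA21 and in SLC11A2 for the first, and in SLC2A1, below the median, for the second. Neither family kept to that end of the range. A miR-25/92 match was also found in ATP6V0A2, at −1.28, and miR-19 matches in SLC25A44 and SLC6A8, at 0.22 and 0.25.
miR-92a-3p: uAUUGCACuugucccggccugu
VMA21, position 1002 to 1008: ttggtactaattatGTGCAATc
SLC11A2, position 2020 to 2026: aaccagtactctggGTGCAATa
miR-19a-3p: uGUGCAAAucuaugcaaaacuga
SLC2A1, position 640 to 646: gggttctagtctccTTTGCACt

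Positions are counted from the first base of the annotated 3′ UTR, and whether a peak covers a site is not known, because the peaks carry hg19 coordinates and the transcripts were of another build. The motifs searched on the mRNA strand were GCACTTT (miR-17/20/93), TGCTGCT (miR-15/16), TTTGCAC (miR-19), GTGCAAT (miR-25/92), TGTTTAC (miR-30), ACAGGGT (miR-10) and GTCTTCC (miR-7). Those of miR-19 and miR-17/20/93 share the letters GCAC and can overlap, as they do in ATP6V0E1. SLC29A1 and SLC5A6, both above 1, had no match to the 7 families. Matches were about as frequent in the members as elsewhere. At least 1 family was matched in 32 of 44 members with a 3′ UTR peak and an annotated 3′ UTR (72.7%), and in 1135 of all 1505 such genes (75.4%), with median 3′ UTR lengths of 1749 nt in the members and 1642 nt in all such genes. ATP2A2 is among the 32, with a miR-30 match. Its matched 3′ UTR is 856 nt long, but its outer 3′ UTR peaks lie 2856 nt apart. For the other genes too, it was not checked whether the matched 3′ UTR holds the peaks.

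The share with a given match was 31.8% of members and 33.2% of all such genes for miR-17/20/93, 29.5% and 34.4% for miR-15/16, and 22.7% and 27.0% for miR-19. For miR-25/92 it was 15.9% of members and 19.4% of all such genes, for miR-30 27.3% and 27.4%, and for miR-10 and miR-7 11.4% of members each, against 14.5% and 14.4%. The 13 members with a miR-15/16 match had a median 3′ UTR log ratio of −0.38, against 0.22 in the 31 without, whereas over all such genes the medians were 0.17 with a match and 0.16 without. The next widest of the 7 gaps was that of miR-7, at −0.36 in 5 members with a match and 0.22 in 39 without. These gaps were not tested, and a match is a description of letters and not a bound site.

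As a whole the 56 genes had log ratios close to those of other genes. A gene's value is the median of its peaks, and 43 of the 56 genes (76.8%) had 1 peak, against 66.1% of all genes. Whether this bears on the shares of high and low gene values was not tested. The median over the members was 0.22 (exact 95% interval over genes 0.05 to 0.42), against 0.17 (0.14 to 0.20) over all 2213 genes. The member median was below that of all genes with the peak of highest log average per gene (0.14 against 0.18) and with 3′ UTR peaks only (0.13 against 0.16). Of the members 29 (51.8%) lay above the median of all genes, against 50% of all genes. Values above 1 were more frequent: 8 of 56 members (14.3%) against 9.17% of all genes, and 15 of 81 peaks (18.5%) against 11.3% of all peaks, the 15 peaks coming from 10 genes. Values below −1 were found in 1 of 56 members (1.79%) against 3.43% of all genes, and in 3 of 81 peaks (3.70%) against 4.22% of all peaks. None of these shares was tested, and intervals over genes do not cover the spread between replicates.

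**Figure D1:**
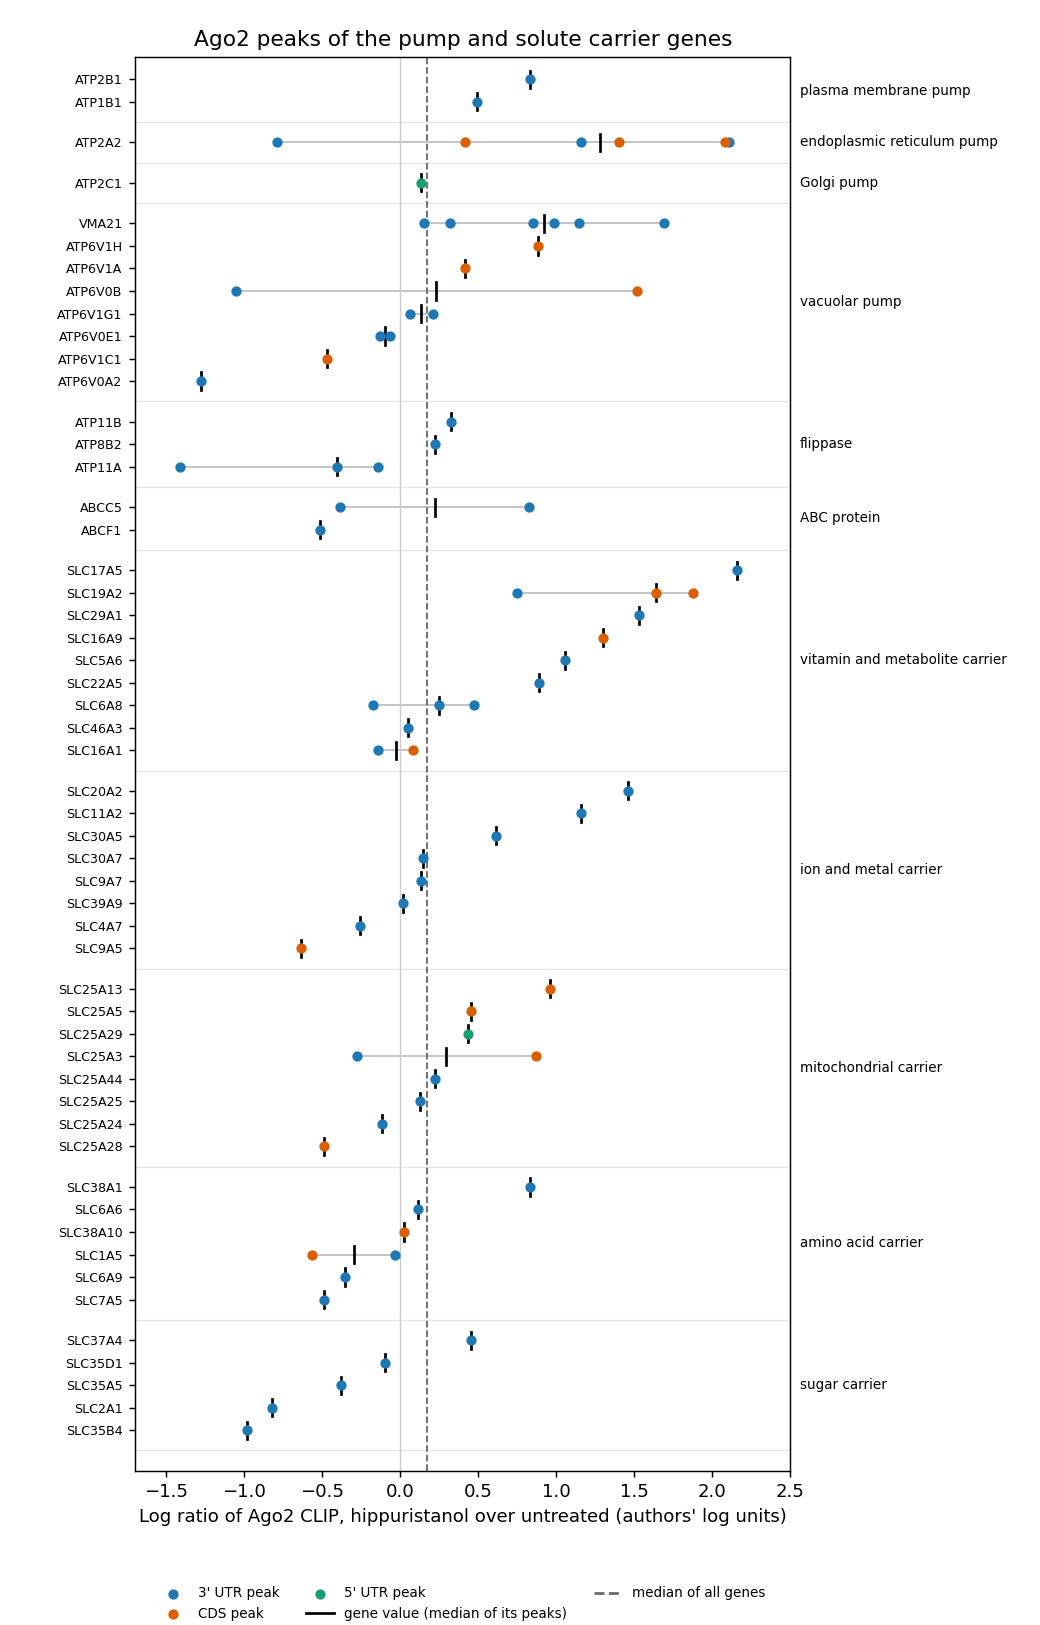
Log ratio of hippuristanol over untreated (horizontal axis, authors' log units) for 76 peaks of 53 genes (rows), grouped by kind and coloured by the annotated region. Black bars mark the gene value and the dashed line the median of all genes, 0.17. The vitamin and metabolite carriers reach the highest gene value, 2.16, and ATP6V0A2 the lowest, −1.28.

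Pumps had a higher median than solute carriers, with intervals that overlapped widely. The median gene value was 0.28 for the 13 pump genes (95% interval −0.10 to 0.88) and 0.13 for the 37 solute carriers (−0.03 to 0.45), a difference of 0.15. It was between 0.0053 and 0.37 under the alternatives tried, being smallest among genes with 2 or more peaks and largest with 3′ UTR peaks only. Of the pump genes 8 of 13 (61.5%) lay above the median of all genes, and of the solute carriers 17 of 37 (45.9%). Above 1 the order depended on the item counted. By gene, 1 of 13 pump genes (7.69%) and 7 of 37 solute carriers (18.9%) lay there, against 9.17% of all genes. The sets differ in peaks per gene: 53.8% of pump genes and 86.5% of solute carriers had 1 peak. By peak, 7 of 28 pump peaks (25%) and 8 of 44 solute carrier peaks (18.2%) lay there, against 11.3% of all peaks. The 7 pump peaks all came from ATP2A2, VMA21 and ATP6V0B, and the first 2 of these genes held 6 peaks each. Peaks of the same gene are not independent items.

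**Figure D2:**
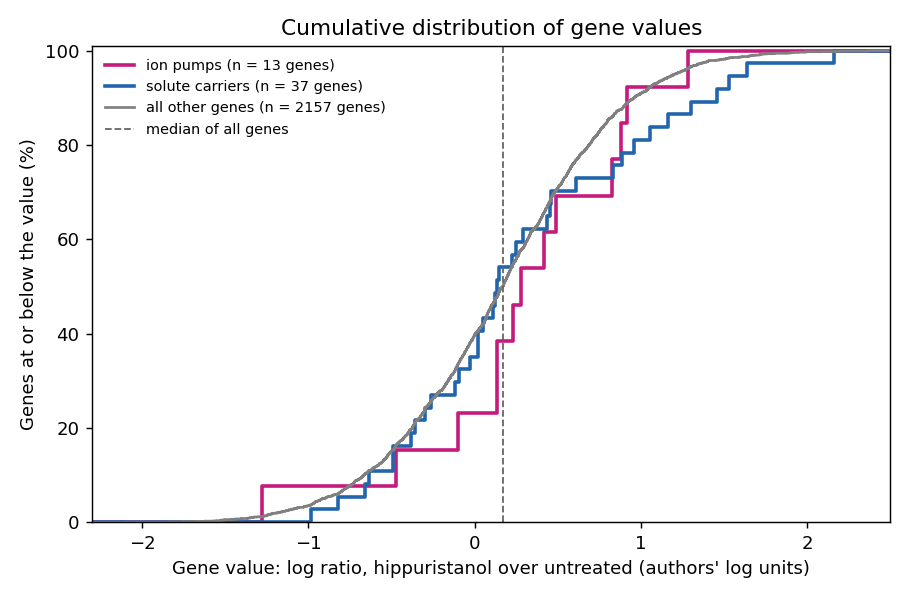
Share of genes (vertical axis, %) at or below each gene value (horizontal axis, authors' log units) for 13 ion pump genes, 37 solute carriers and the 2157 other genes. The pump curve lies right of the others around the dashed median of all genes, and the solute carrier curve lies right of them above a value of 1, up to 2.16.

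The P-type pumps of the plasma membrane, endoplasmic reticulum and Golgi all had gene values above 0, as did 1338 of all 2213 genes. Of the 4 flippases, which are P-type as well and are described apart, 3 lay above 0. ATP1B1, the beta subunit of the sodium pump, stood at 0.49. The calcium exporter ATP2B1 stood at 0.83. ATP2C1 had a single 5′ UTR peak at 0.14 in the authors' deposited table, just under the median of all genes. The 5 P-type pumps had a median of 0.49, and 4 of them lay above the median of all genes.

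ATP2A2, the SERCA2 calcium pump of the endoplasmic reticulum, had the highest value of the pump genes, 1.28 over 6 peaks, rank 87 of 2213 genes. From 5′ to 3′ the authors' deposited table gives 0.41, 1.40 and 2.08 for its peaks in coding sequence (CDS) and 2.11, 1.16 and −0.79 for its 3′ UTR peaks. The highest 2 ranked 12 and 9 among 4718 peaks, and the last lay on the opposite side of 0. The CDS peaks with 1.40 and 2.08 lie side by side (chromosome 12, 110783095 to 110783123 and 110783124 to 110783155, plus strand, hg19 as the table gives it), and the 3′ UTR peaks with 2.11 and 1.16 overlap (110784794 to 110784843 and 110784841 to 110784913). The 4 high values therefore come from 2 places in the gene. The table assigns the CDS peaks to NM_001681 and the 3′ UTR peaks to NM_170665, RefSeq entries of different splice forms of the pump. The GENCODE 3′ UTR matched to ATP2A2 is 856 nt long and its outer 3′ UTR peaks lie 2856 nt apart, so no seed site is given for it.

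**Figure D3:**
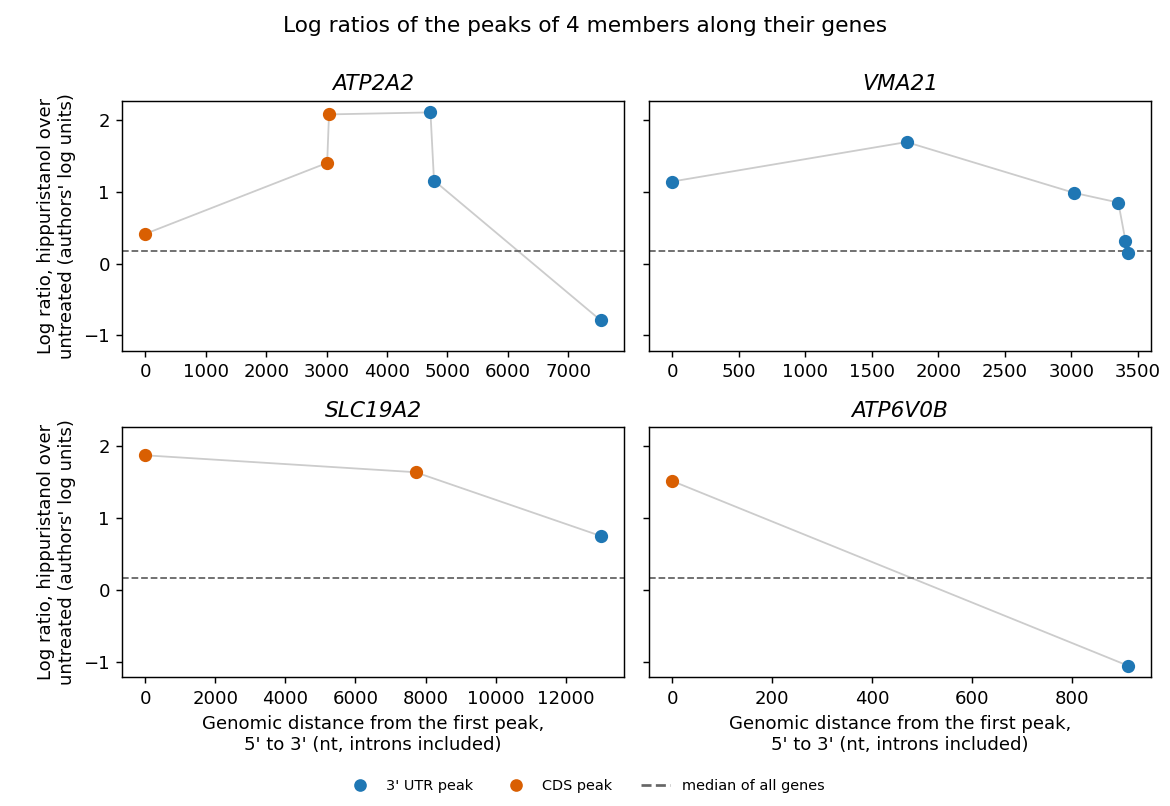
Log ratio (vertical axis, authors' log units) of each peak of ATP2A2, VMA21, SLC19A2 and ATP6V0B against genomic distance from the gene's first peak in the direction of transcription (horizontal axis, nt). In all 4 genes, which were chosen after their values were seen, the last peak is lower than the first, by 2.57 units in ATP6V0B.

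The vacuolar ATPase genes were spread on both sides of the median of all genes. The 7 subunit genes had a median of 0.13, and 3 of them lay above the median of all genes. In the V1 sector, which hydrolyses ATP in the cytosol, ATP6V1H stood at 0.88, the catalytic ATP6V1A at 0.42, the stalk subunit ATP6V1G1 at 0.13 and ATP6V1C1 at −0.47. In the membrane-bound V0 sector, which passes the protons, ATP6V0B stood at 0.23, ATP6V0E1 at −0.10 and ATP6V0A2 at −1.28. ATP6V0A2, from a single 3′ UTR peak (chromosome 12, 124243381 to 124243410, plus strand), was the lowest member and ranked 2187 of 2213 genes. The subunit genes of the same enzyme thus spanned −1.28 to 0.88.

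ATP6V0B gives no common value for its mRNA. In the authors' deposited table its CDS peak (chromosome 1, 44442833 to 44442870, plus strand) stood at 1.52 and its 3′ UTR peak (44443740 to 44443784) at −1.05. Both peaks had high log averages, −4.26 and −4.07 in the authors' deposited table. By contrast the 2 peaks of ATP6V0E1 differed by 0.06 units and those of ATP6V1G1 by 0.15. GENCODE lists 4 pseudogenes named after ATP6V0E1 and 5 after ATP6V1G1, so reads may be shared with copies and these values are uncertain.

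VMA21, a chaperone of the endoplasmic reticulum that assembles the V0 sector, had 6 peaks along its 3′ UTR and a gene value of 0.92. From 5′ to 3′ the authors' deposited table listed 1.14, 1.69, 0.99, 0.85, 0.32 and 0.15. The first 4 lay well above the median of all genes, and the last 2, which overlap (chromosome X, 150577669 to 150577695 and 150577672 to 150577726, plus strand), were the lowest. The log averages of the 6 peaks were alike, between −6.87 and −6.57 in the authors' deposited table. Without VMA21 and the ribosome-associated ABCF1, neither of which moves a solute, the pump median was 0.26 over 12 genes. ABCF1 is not among the pump genes, so this value reflects leaving out VMA21 alone.

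Flippases turn phospholipids from the outer to the inner leaflet of a membrane, and 3 of the 4 lay above the median of all genes. ATP11B stood at 0.33 and ATP8B2 at 0.22, each from 1 peak in the 3′ UTR. ATP11A stood at −0.41, with 3′ UTR peaks of −0.41 and −0.15, which overlap, and −1.41 in the authors' deposited table. The last of these (chromosome 13, 113538254 to 113538278, plus strand) was the lowest of the 81 peaks. Among the ABC proteins, the organic anion exporter ABCC5 had 3′ UTR peaks of −0.39 and 0.83 in the authors' deposited table and a gene value of 0.22. ABCF1, which acts on translation and not in transport, stood at −0.52.

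Among the solute carriers, those of vitamins, nucleosides and other metabolites had the highest group median. The cargo groups were formed after the values were known, so their order, shares and intervals are a description only. An interval for a group formed in this way does not have its stated coverage. Carriers with fewer than 3 peaks, no peak beyond 1 or −1 and no place among the 5 highest log averages are likewise named with their values already seen. The 9 vitamin and metabolite carriers had a median of 1.05 (95% interval 0.05 to 1.64), with 7 above the median of all genes and 5 of 9 (55.6%) above 1, against 9.17% of all genes. SLC17A5, the sialic acid exporter of lysosomes, stood at 2.16, rank 5 of 2213 genes, from 1 peak in the 3′ UTR (chromosome 6, 74304730 to 74304759, minus strand). SLC29A1, the nucleoside transporter ENT1, stood at 1.53, the monocarboxylate transporter family member SLC16A9 at 1.30 from a CDS peak, and SLC5A6, which takes up biotin and pantothenate, at 1.05. SLC22A5, the carnitine transporter, stood at 0.89, and the others were the creatine transporter SLC6A8 at 0.25, the lysosomal SLC46A3 at 0.05 and the lactate transporter SLC16A1 at −0.03.

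SLC19A2, a thiamine transporter, was high at each of its 3 peaks and had a gene value of 1.64, rank 29 of 2213 genes. The authors' deposited table gives 1.87 and 1.64 for its CDS peaks and 0.75 for its 3′ UTR peak. The peaks lie in separate places (chromosome 1, 169446904 to 169446964, 169439206 to 169439235 and 169433912 to 169433953, minus strand), and none overlaps another. SLC6A8 was flatter: its 3 peaks in the 3′ UTR had 0.47, 0.25 and −0.18 from 5′ to 3′ in the authors' deposited table.

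Ion and metal carriers had a median of 0.13 over 9 genes, each with 1 peak, and 3 lay above the median of all genes. The phosphate transporter SLC20A2 stood at 1.46 and the iron and manganese importer SLC11A2 at 1.16. The zinc transporter SLC30A5 followed at 0.61. Sodium-proton exchangers were lower, with SLC9A7 at 0.13 and SLC9A5 at −0.64. The 3 genes SLC30A7, SLC39A9 and SLC4A7 lay between −0.26 and 0.15.

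Mitochondrial carriers had a median of 0.26 over 8 genes, 5 of them above the median of all genes. SLC25A13, the aspartate-glutamate carrier citrin, stood at 0.96 and SLC25A28, which carries iron, at −0.49. SLC25A29, a carrier of basic amino acids, had the highest log average of the members, −0.49, rank 11 of 2213 genes. The authors' deposited table places its peak in the 5′ UTR and gives it 0.43 as log ratio. SLC25A3, the phosphate carrier, had 0.87 in CDS and −0.28 in the 3′ UTR in the authors' deposited table. SLC25A5, the adenine nucleotide carrier, stood at 0.46, and GENCODE lists 9 pseudogenes named after it, so its value is uncertain. The same holds for SLC25A3, SLC25A24 and SLC7A5, with 2 pseudogenes each, and for ATP1B1, SLC6A6, SLC16A1 and SLC9A7, with 1 each. Copies under other names were not searched for, so members not listed, SLC6A8 among them, may share reads as well.

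Amino acid and sugar carriers lay mostly below the median of all genes. The 6 amino acid carriers had a median of −0.14 (95% interval −0.49 to 0.83), and only SLC38A1, a glutamine transporter, lay above the median of all genes, at 0.83. The others were the taurine transporter SLC6A6 at 0.11, SLC38A10 at 0.02, the glutamine exchanger SLC1A5 at −0.30, the glycine transporter SLC6A9 at −0.36 and the leucine exchanger SLC7A5 at −0.49. The 5 carriers of sugars, sugar phosphates and nucleotide sugars had a median of −0.38. SLC37A4, which brings glucose 6-phosphate into the endoplasmic reticulum, was the highest at 0.45, and the glucose transporter SLC2A1 at −0.82 and the nucleotide sugar transporter SLC35B4 at −0.98 were the lowest. SLC35B4 was the lowest solute carrier, and none of the 37 lay below −1. With 1 peak in 10 of these 11 genes, the group medians rest on single peaks.

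By region, CDS peaks of the members had a higher median than 3′ UTR peaks. The median log ratio was 0.46 over 19 CDS peaks (95% interval −0.23 to 1.40) and 0.15 over 60 3′ UTR peaks (−0.07 to 0.45). Some genes give several of these peaks, so the intervals treat items as independent that are not. Over all genes it was 0.20 for 949 CDS peaks and 0.15 for 2894 3′ UTR peaks. Of the 19 CDS peaks 6 (31.6%) lay above 1, against 12.6% of CDS peaks of all genes. They were in the 4 genes ATP2A2, ATP6V0B, SLC16A9 and SLC19A2, while the 120 such peaks over all genes were in 109 genes. The ATP2A2 peaks at 1.40 and 2.08 lie side by side. In the 7 members with both kinds, CDS was the higher region in 5 and the lower in 2, among them SLC1A5, and the median of CDS minus 3′ UTR was 0.25. Over all 234 genes with both kinds CDS was the higher in 123 and the lower in 111, and the median was 0.05. The regions were close to those in all mRNAs: 74.1% of the 81 member peaks and 71.8% of 4028 mRNA peaks of all genes lay in 3′ UTRs.

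Peaks of the same member did not share a side of the median more often than elsewhere. All peaks lay on the same side of the median of all genes in 5 of 13 members with 2 or more peaks (38.5%) and in 291 of all 750 such genes (38.8%). The most 3′ peak was lower than the most 5′ peak in 8 of the 13 members (61.5%), with a median difference of −0.65, and in 369 of the 750 genes (49.2%), with a median difference of 0.02. The widest spread within a member was 2.90 units in ATP2A2, and members with 2 peaks had a median spread of 0.53, against 0.54 over all 393 genes with 2 peaks.

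The log average, which cannot be read as a level of bound Ago2 because its scaling is unknown, was lower for pumps than for solute carriers. The median per gene was −6.55 for the pumps (95% interval −7.55 to −6.07), −5.55 for the solute carriers (−6.02 to −5.17) and −6.30 for all genes. No source used here says whether the log average is scaled by peak length or by the amount of the mRNA, and the median peak was 43.5 nt long in pumps and 34.5 nt in solute carriers. After SLC25A29, the solute carriers with the highest log averages were SLC9A5 at −3.13, SLC6A9 at −3.50, SLC46A3 at −3.71 and SLC38A10 at −4.02, and their log ratios lay between −0.64 and 0.05. Across the 56 genes, which share the same libraries, log average and log ratio had a Spearman coefficient of 0.07.

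**Figure D4:**
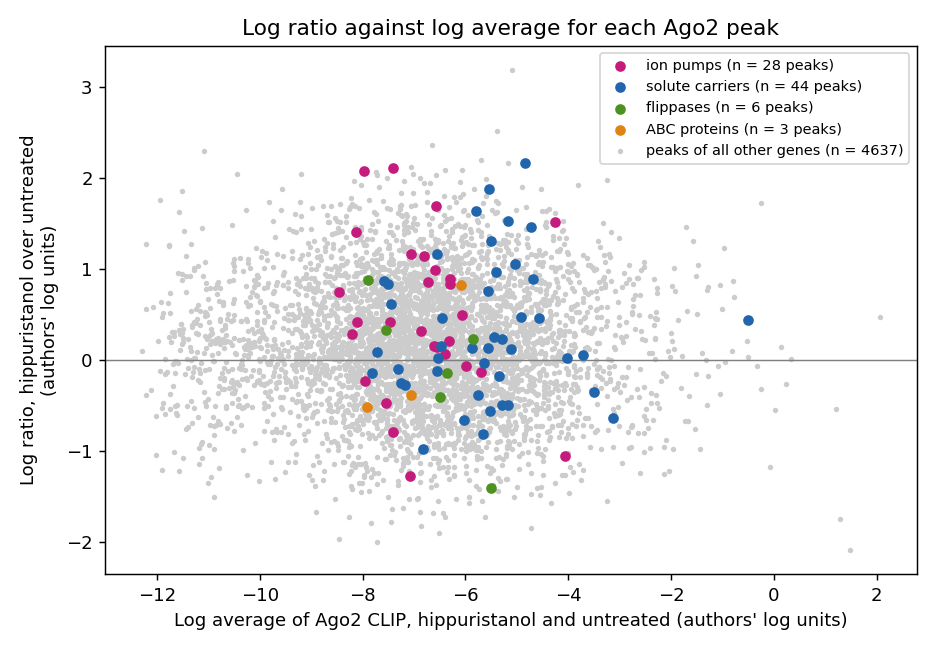
Log ratio (vertical axis) against log average (horizontal axis), both in the authors' log units, for the 28 peaks of pumps, 44 of solute carriers, 6 of flippases, 3 of ABC proteins and 4637 of all other genes. Pumps lie further left, with a median gene log average of −6.55, than solute carriers, with −5.55.

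The annotated transcripts of the members were of ordinary length and composition. The median 5′ UTR was 220.5 nt with 69.9% GC in the members and 202 nt with 66.9% GC in all genes, and the median 3′ UTR 1666 nt with 40.2% GC in the members and 1386 nt with 39.4% GC in all genes. The Spearman coefficient of the gene value with 5′ UTR length was 0.31 over 54 members and 0.02 over 2017 genes. With 3′ UTR GC content it was −0.27 over 55 members and −0.16 over 2039 genes. These describe genes that share the same libraries.

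Of 68 further genes, a mixed list of partners, regulators and other pumps and transporters, 9 were in the table, with a median of 0.20. Of these 9, 5 lay above the median of all genes. ATP9A, a P-type relative of the flippases, stood at 1.10, and ATP13A3, a pump of the same superfamily, at 0.42 over 6 peaks. The kinase WNK1, which regulates chloride cotransporters, stood at 0.33, OXR1 at 0.06 and the vesicle protein SV2A at 0.15, each over 2 peaks. Ion channels and their subunits had 7 genes with a median of −0.05, of which 2 lay above the median of all genes. KCNIP3, a calcium-binding partner of potassium channels, was the lowest at −1.25, while the sodium channel SCN8A and the volume-regulated channel subunit LRRC8B, with 2 peaks each, stood at 0.36 and 0.02.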

How the data were processed

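Ago2 CLIP was done on 293S cells with and without hippuristanol. Per the file headers, the deposited values are normalized scores, 1 log average and 1 log ratio for each peak. Of the log base, kind of normalization, peak caller, filters and the way libraries were combined, nothing is stated. The submitters' processing notes name hg19, DESeq, TopHat and Bowtie 0.12.8 without saying what each did. Of 81 member peaks 2 lay inside their gene's GRCh38 span, so coordinates are printed as the table's. Of 4768 peaks, 50 repeated another peak's gene and values and were dropped. Peaks were summarised per gene by their median, and medians have exact order-statistic intervals at 95% (Python 3.11.15, scipy 1.17.1, pandas 2.3.3), checked on simulated data. All 56 members matched a GENCODE 29 transcript, 54 by RefSeq identifier and 2 by symbol. A count test had been foreseen for values per library. With 1 log ratio per peak no test was made, and depth per library is unknown. Members, gene lists and cargo groups were chosen with earlier results of these data known. Every pump, flippase and ABC gene was to be named, and of solute carriers those with 3 or more peaks, with a peak above 1 or below −1, or among the 5 highest log averages, the other carriers being named with values already seen; of the other lists, genes beyond 1 or −1 and those with most peaks. The microRNA families let-7 and miR-124 were not analysed here. Values of 3 member genes and 1 seed site are not reported here, although the genes enter all counts and medians.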

Additional observations from a re-analysis of the deposited data

How the results depend on the processing

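The medians of members, pumps and solute carriers, their difference and the number of members above the median of all genes were recomputed with the mean of a gene's peaks, its peak of highest log average, 3′ UTR peaks only, peaks at or above the median log average, overlapping peaks counted once, single peaks as items, genes with 2 or more peaks, and without VMA21 and ABCF1. Leaving out VMA21 and ATP2A2 was added after the data were seen. Every median and the difference kept its sign against 0, but the median of all genes or peaks was itself between 0.15 and 0.19. Against that level the solute carrier median was lower, at 0.13 against 0.17 as first computed. It was higher only with 2 or more peaks per gene, at 0.25 against 0.19. The direction of the member median against all genes did not hold throughout: it was 0.14 against 0.18 with the peak of highest log average (27 of 56 members above, 48.2%) and 0.13 against 0.16 with 3′ UTR peaks only (21 of 45, 46.7%), and the cause was not tested. The member median lay between 0.13 and 0.23, the pump median between 0.21 and 0.49 and the solute carrier median between 0.12 and 0.25. The number of members above the median of all genes was 29, and it was 8 of 13 when only genes with 2 or more peaks were kept, because fewer genes were counted. The pump minus solute carrier difference was 0.15, and 0.08 with the peak of highest log average, 0.10 with overlapping peaks counted once, 0.10 without VMA21 and ATP2A2, 0.29 over peaks, 0.37 with 3′ UTR peaks and 0.0053 with 2 or more peaks per gene. No paired analysis was possible because the table holds no values per library, and for the same reason no replicate could be left out. Depth is unknown, so its effect on single peaks was not measured.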
